A study of Mus musculus with 4 samples.

Results

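Transcript levels of 48 genes known from neurons were described in differentiating C2C12 cells, a mouse myoblast line that fuses into myotubes once serum is lowered. The list holds synaptic vesicle proteins, the machinery of vesicle fusion, granule proteins, neuronal cytoskeleton and growth cone proteins, surface adhesion molecules and the repressor Rest. Its members were chosen by gene name, with earlier results of these arrays known. In those results Syngr1, Fez1 and Map2 stood higher and Nefl lower with the inhibitors, so for these 4 genes the difference from control is given here as a description, with no p-value. All 48 were among the 18193 genes that a probe set with a single symbol represented. For each gene the brightest of its probe sets, by mean over the 4 arrays, was used. Of the 48 members, 23 had a mean signal at or above that of the median gene (178.8) and were tested, and 25 lay below it and are called dim here. Nefm, at a mean of 169.9, lay just below this threshold, and Fez1, at 185.1, just above it.

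The 4 arrays, 1 per sample, were 2 vehicle controls, 1 sample with tranylcypromine (TC) and 1 with S2101, which both inhibit LSD1, the histone demethylase encoded by Kdm1a. All 4 samples grew with 25 mM glucose and 10% fetal bovine serum before the switch to 2% horse serum, and RNA was taken 48 h after differentiation and treatment began. The labels give no dose, and nothing in them says that the samples came from separate cultures. The spread that p-values rest on may therefore be technical. Where TC and S2101 were tested together, this spread also holds the difference between the arrays of the 2 compounds. With so few arrays, precision is limited throughout. In these mixed-cell samples fewer cells that express a gene and less RNA per cell cannot be told apart.

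Synaptic vesicles hold transmitter in the nerve terminal. There, synaptotagmins sense calcium, and SNARE proteins such as Snap25, Stx1a and Vamp2 pull the vesicle and cell membranes together. Outside the nervous system many of these genes are kept low by REST, a zinc finger repressor that binds the RE1 element and recruits the CoREST complex, of which LSD1 is a part. Some members, such as Ncam1, Dpysl2 and Stmn1, are also known from myoblasts and other dividing or migrating cells, so their presence in a muscle line is not particular to neurons.

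The RE1 core was searched in RefSeq promoter windows (GRCm38.p6), which run from 250 bases before to 50 after an annotated start site. A window was found for 31 members and none was used for the other 17. The core was read as CAGCACCNNGGACAG on either strand, with at most 1 mismatch outside the 2 free bases. It occurred in 0.186% of 32851 windows (61), and exactly in 0.0365% (12). Among the members it occurred in Syn1 and Celsr3, each with 1 mismatch, as CAGCACCGCGGTCAG and CAGCACCGTGGGCAG. In Scg2 the same arms met exactly with 0 bases between them, a form found in 3 of all windows and looked for only after the Scg2 window was read. The windows of Syngr1, Syt11, Fez1 and Map2 did not hold the core. A match is a description of these letters and not a bound site, and RE1 elements often lie outside such windows. The 250 bases before the start are printed 5′ to 3′ on the gene's strand, with the matched letters in capitals, for the 3 members with a match and for Syngr1 and Syt11, to show the windows side by side. They lie at chrX:20920919-20921168 (minus strand) for Syn1, chr9:108825795-108826044 (plus) for Celsr3, chr1:79440027-79440276 (minus; the match reads on the other strand) for Scg2, chr15:80091084-80091333 (plus) for Syngr1 and chr3:88772600-88772849 (minus) for Syt11.
Syn1: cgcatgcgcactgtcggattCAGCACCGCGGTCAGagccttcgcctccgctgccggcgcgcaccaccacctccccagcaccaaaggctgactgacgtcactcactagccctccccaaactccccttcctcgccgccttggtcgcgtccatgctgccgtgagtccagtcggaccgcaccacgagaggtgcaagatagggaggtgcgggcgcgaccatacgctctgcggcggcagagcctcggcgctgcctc
Celsr3: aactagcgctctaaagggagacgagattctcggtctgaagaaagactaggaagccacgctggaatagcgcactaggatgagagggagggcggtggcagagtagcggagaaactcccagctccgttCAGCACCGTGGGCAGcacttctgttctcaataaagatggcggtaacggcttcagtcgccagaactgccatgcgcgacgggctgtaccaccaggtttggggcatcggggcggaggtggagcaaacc
Scg2: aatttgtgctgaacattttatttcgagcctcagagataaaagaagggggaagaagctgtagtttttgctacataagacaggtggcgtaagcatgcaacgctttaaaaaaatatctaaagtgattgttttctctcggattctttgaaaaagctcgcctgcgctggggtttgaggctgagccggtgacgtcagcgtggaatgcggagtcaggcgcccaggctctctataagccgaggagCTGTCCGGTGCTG
Syngr1: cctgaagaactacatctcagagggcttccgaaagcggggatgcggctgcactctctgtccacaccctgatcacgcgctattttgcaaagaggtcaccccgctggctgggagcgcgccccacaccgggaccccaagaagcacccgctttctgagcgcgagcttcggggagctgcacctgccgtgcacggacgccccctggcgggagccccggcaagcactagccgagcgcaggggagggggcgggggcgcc
Syt11: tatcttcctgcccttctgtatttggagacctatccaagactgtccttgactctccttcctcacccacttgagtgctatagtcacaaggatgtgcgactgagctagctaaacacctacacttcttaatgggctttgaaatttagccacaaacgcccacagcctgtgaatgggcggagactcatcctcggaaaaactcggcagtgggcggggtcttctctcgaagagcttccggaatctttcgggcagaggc

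All 3 genes with a match were dim. Syn1, which tethers vesicles to actin, read 74.4 and 124 in vehicle, 134 in TC and 144 in S2101. Its inhibitor arrays lay above its controls, but by less than the controls differed from each other. Celsr3, an atypical cadherin of axon guidance, had 10.8 and 7.07 in vehicle, 23.1 in TC and 5.31 in S2101. Scg2, a secretory granule protein, had 32.9 and 1.58 in vehicle, 2.65 in TC and 3.23 in S2101. The arrays of both these genes overlapped at levels where MAS5 signals have little meaning.

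The arrays had median signals of 63.4 to 75.1 and 3′ to 5′ Gapdh ratios, which track RNA integrity, of 0.743 to 0.790. Log2 signals correlated at r = 0.987 to 0.990 between arrays. Of 12 skeletal myotube markers bright enough to test, none passed between inhibitor and control arrays (limma; 3 had an unadjusted p under 0.05). Against S2101 alone 1 did, the cardiac actin gene Actc1, lower at -0.28 ± 0.07 (adjusted p = 0.0362, limma). Myogenin, the myogenic factor that marks commitment to fusion, had 12999 and 12821 in vehicle, 13386 in TC and 11963 in S2101. The summed signal of the 13 myotube markers was 145093 and 142291 in vehicle, 152945 in TC and 139088 in S2101. Of 15 markers that define neurons, Nefl and Tubb3 alone were bright enough to test, and 7 were below 50 on every array, Snap25 and the transmitter transporters Slc17a6 and Slc17a7 among them. Their summed signal was 2362 and 2244 in vehicle, 2010 in TC and 1880 in S2101, and most of it came from Nefl, known to be lower, and Tubb3. The other 13 markers summed to 564 and 668 in vehicle, 516 in TC and 675 in S2101, which overlap.

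In the fit over all 9097 genes (limma on log2(signal + 50), Benjamini-Hochberg 0.05), 4 of the 23 tested members were counted higher and 2 lower with the inhibitors, and 17 did not pass. Over all tested genes 4.28% were higher and 3.74% lower, 8.01% in all. The members higher were Syngr1, Fez1, Syt11 and Map2, and those lower were Stmn1 and Dpysl3. Syngr1, Fez1 and Map2 were known when the list was made, and Syngr1 and Fez1 reached the signal threshold only through their inhibitor arrays, so for these 3 the count is a description and nothing is read from the share. The other calls were on Syt11, Stmn1 and Dpysl3. The whole list was made with earlier results of these arrays known, and whether that touched the choice of these genes cannot be told. The median log2 difference of the tested members was -0.09, against 0.01 for all tested genes, with 10 members positive and 13 negative. With TC alone against control 5 members were higher and 3 lower (8.18% of all genes past the test), and with S2101 alone 4 were higher and 3 lower (6.71%). These counts again hold Syngr1, Fez1 and Map2, with S2101 also Nefl, so nothing is read from their shares either. The TC and S2101 comparisons share their controls. With 1 array per compound they assume that the lone array varies like the controls.

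**Figure D1:**
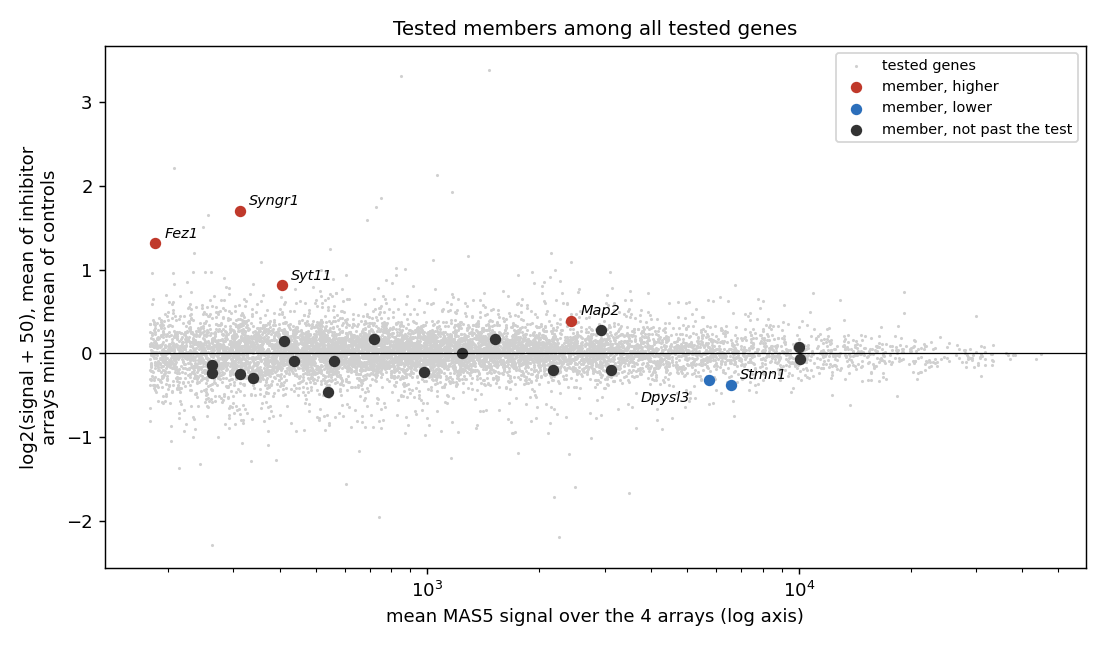
Difference between the mean of the inhibitor arrays and the mean of the controls on the log2(signal + 50) scale, against the mean signal over the 4 arrays on a log axis, 1 point per tested gene (n = 2 arrays per group). The inhibitor group is 1 TC and 1 S2101 array. Syngr1, Fez1 and Syt11 lie far above the cloud at lower signals, Map2 nearer to it, and Stmn1 and Dpysl3 lie at its lower edge at high signal.

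Of the 5 tested genes of vesicle membrane proteins, Syngr1 and Syt11 were higher with the inhibitors and 3 did not pass. Syngr1, synaptogyrin 1, a vesicle protein with 4 membrane spans, read 123 and 117 in vehicle, 553 in TC and 460 in S2101. Both inhibitor arrays lay far above both controls, and the log2 difference was 1.70 ± 0.15 (SE). This difference came from a single probe set. The other bright probe set of Syngr1 had 187 and 160 in vehicle, 159 in TC and 217 in S2101, a log2 difference of 0.08, and its arrays overlapped. Taking the brightest probe set over all 4 arrays favours the one that is high with the inhibitors. Averaged over its probe sets, Syngr1 was too dim to test.

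Syt11, a synaptotagmin that lacks the calcium binding of its relatives, had 274 and 287 in vehicle, 535 in TC and 528 in S2101. It rose by 0.81 ± 0.12 on the log2 scale (adjusted p = 0.00297, limma), with no overlap between the groups. All 5 of its probe sets lay above both controls on both inhibitor arrays. The 3 other bright ones gave log2 differences of 0.61 to 0.92. The probe set used belongs to the kind whose probes can match other transcripts (suffix _x_at). With such probe sets left out, the rise was 0.76 (adjusted p = 0.00849, limma).

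Syngr2, the synaptogyrin of non-neuronal cells, had 2691 and 2605 in vehicle, 3339 in TC and 3091 in S2101. Its inhibitor arrays lay above the controls, but the log2 difference of 0.27 ± 0.08 did not pass (adjusted p = 0.056, limma). Against TC alone it passed, at 0.33 ± 0.08 (adjusted p = 0.0353, limma), and against S2101 alone, at 0.22, it did not (0.154). Its other probe set gave a difference of 0.38 with no overlap. Vamp2, the vesicle SNARE, had 418 and 354 in vehicle, 427 in TC and 440 in S2101, and did not pass (0.15 ± 0.13; adjusted p = 0.541, limma). Rab3a, a small GTPase of vesicle docking, stood at 0.01 ± 0.09 (0.968), and its only bright probe set is of the kind that can match other transcripts. The other 7 genes of this group, Syp, Syt1, Syt4, Vamp1, Syn1, Syn2 and the clathrin adaptor gene Snap91, were dim, with mean signals of 20.6 to 119.

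**Figure D2:**
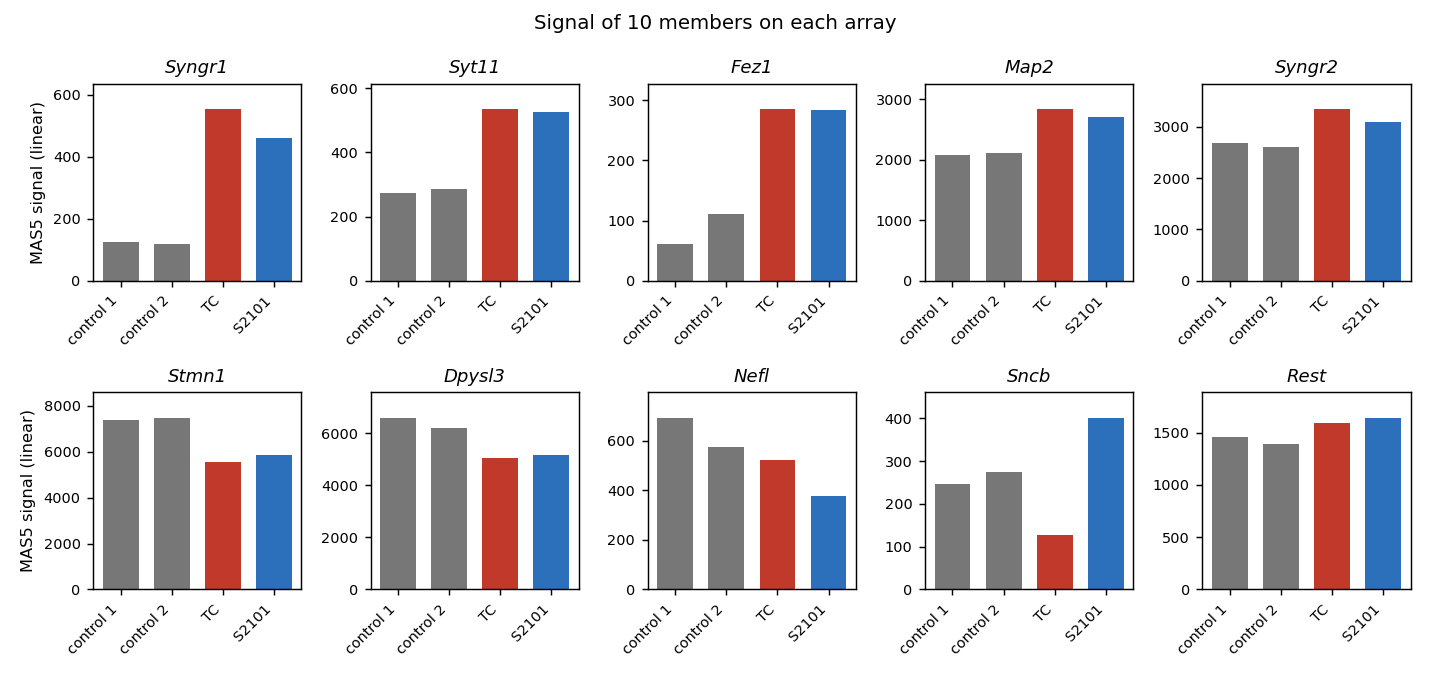
MAS5 signal (linear) of 10 members on each of the 4 arrays, 1 bar per array. Syngr1, Syt11 and Fez1 stand well above both controls on the TC and S2101 arrays, Map2, Syngr2 and Rest stand slightly above, Stmn1, Dpysl3 and Nefl stand below, and Sncb lies below the controls with TC and above them with S2101.

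None of the 3 tested genes of vesicle docking and fusion passed in any of the 4 comparisons (limma; 0 had an unadjusted p under 0.05 with the inhibitors, and 1 between TC and S2101). Stx1a, the membrane SNARE syntaxin 1A, had 456 and 445 in vehicle, 353 in TC and 496 in S2101 (log2 difference -0.10 ± 0.15; adjusted p = 0.774, limma). The complexin genes Cplx1 and Cplx2, whose proteins clamp the fusion complex, stood at -0.23 ± 0.20 and -0.29 ± 0.23. The controls of Cplx2 differed more from each other (489 and 275) than the inhibitor arrays did (241 and 353), and its other bright probe set gave 0.03. Snap25 had 14.4 and 17.1 in vehicle, 12.2 in TC and 0.84 in S2101, so the neuronal SNARE was at background on every array. The granule genes Scg2, Scg5, Chgb and Vgf were all dim, with mean signals of 5.12 to 15.8.

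The synuclein gene Sncb, which encodes beta-synuclein of nerve terminals, differed between the inhibitor arrays. It had 247 and 275 in vehicle, 126 in TC and 401 in S2101, so TC lay below both controls and S2101 above both. With TC it stood at -0.82 ± 0.18 against control (adjusted p = 0.0249, limma), and S2101 stood 0.54 above it (0.126). The difference between TC and S2101 itself, -1.35 ± 0.21, did not pass (adjusted p = 0.109, limma), and Sncb had a single probe set with 1 symbol. Sncg, encoding gamma-synuclein, was dim, with 19.8 and 27.1 in vehicle, 35.4 in TC and 5.76 in S2101.

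Among the genes of axonal and dendritic filaments, Map2 and Nefl went opposite ways. Map2, the dendritic microtubule-binding protein gene, had 2084 and 2116 in vehicle, 2837 in TC and 2710 in S2101. The controls lay close together and the inhibitor arrays clearly above them, at a log2 difference of 0.39 ± 0.08. Its other 3 probe sets were dim, and 2 of them also lay above the controls. Without control 1 the log2 difference of Map2 was 0.38. Nefl, the light neurofilament chain gene, had 691 and 573 in vehicle, 523 in TC and 375 in S2101, a log2 difference of -0.46 ± 0.15, and its other bright probe set gave -0.19. Its inhibitor arrays lay below the controls in both probe sets, with the lowest value on the S2101 array. Nefm, the medium chain gene, was just below the signal threshold, with 186 and 198 in vehicle, 167 in TC and 129 in S2101, also with no overlap. Mapt, which encodes tau, was dim, with 77.2 and 104 in vehicle, 183 in TC and 164 in S2101. Of its 4 probe sets, all dim, 3 lay above both controls on both inhibitor arrays.

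Stathmins bind free tubulin and release it when phosphorylated, and Stmn1 is the widely expressed member of the family, known from dividing cells. Stmn1 had 7393 and 7468 in vehicle, 5574 in TC and 5879 in S2101, and fell by 0.37 (log2; SE 0.07), with an adjusted p of 0.0071 (limma). Its other probe set gave -0.53, also with no overlap. Stmn2 had 2274 and 2370 in vehicle, 2082 in TC and 1969 in S2101, and stood at -0.19 ± 0.08, which did not pass (adjusted p = 0.179, limma), with -0.39 in its other probe set. Stmn4 stood at -0.24 ± 0.13 (0.326). The inhibitor arrays of all 3 tested stathmins lay below both controls, where 23.4% of all tested genes did so. Stmn3 was dim, and its inhibitor arrays (49.5 and 60.3) lay above its controls (33.3 and 8.53). This probe set is of the kind that can match other transcripts (suffix _x_at). The other probe set of Stmn3, also dim, stood at -0.24, and its arrays overlapped.

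The collapsin response mediator genes of the Dpysl family, whose proteins steer growth cones through microtubules, did not share a direction. Dpysl3 had 6576 and 6198 in vehicle, 5046 in TC and 5158 in S2101, and fell by 0.32 (log2; SE 0.07), with an adjusted p of 0.0182 (limma). All 3 of its probe sets lay below both controls, at -0.32 to -0.45. Its call ended without control 1 (-0.28; adjusted p = 0.162, limma) and narrowly without control 2 (-0.36; 0.0501). Dpysl2 stood at 0.08 ± 0.07 (0.572), with 10020 and 9479 in vehicle, 10593 in TC and 9963 in S2101. Dpysl4 and Dpysl5 were dim. Gap43, a membrane protein gene of growing axons, had 577 and 575 in vehicle, 607 in TC and 478 in S2101 (-0.09 ± 0.13; 0.748).

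Fez1, an adaptor that links vesicle cargo to kinesin, was higher with both inhibitors. It had 61.4 and 111 in vehicle, 285 in TC and 283 in S2101, a log2 difference of 1.32 ± 0.20, and its single probe set gives no other reading. The inhibitor arrays nearly coincided, while the controls differed from each other. Fez1 and Syngr1 were the only tested members whose control mean (86.2 and 120) lay below the signal threshold, so they entered the test through their inhibitor arrays (means 284 and 507).

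**Figure D3:**
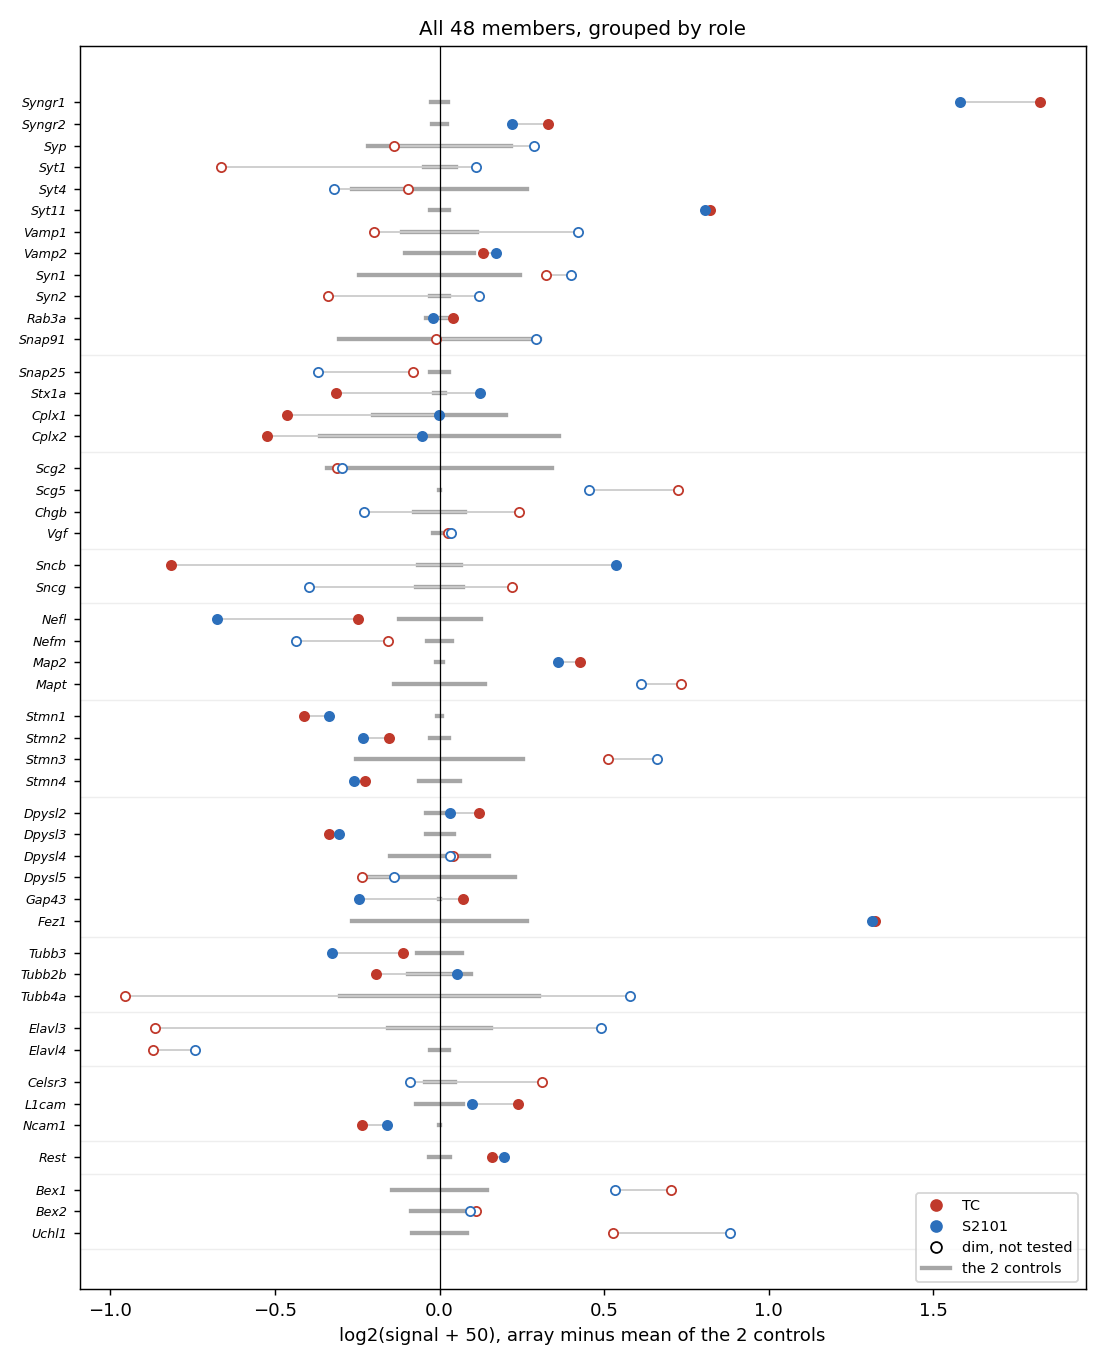
Log2(signal + 50) of the TC array and of the S2101 array minus the mean of the 2 controls, for all 48 members grouped by role, with filled points for tested and open points for dim genes, and a grey bar centred on 0 whose length is the difference between the controls. Syngr1 and Fez1 stand apart to the right, followed by Syt11 and the dim Uchl1. The dim Elavl4, the stathmins but Stmn3, Dpysl3 and Nefl lie to the left. Sncb, Tubb4a and Elavl3 have TC and S2101 on opposite sides.

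No neuronal tubulin passed. Tubb3, the beta-tubulin used as a neuronal marker, had 1107 and 1003 in vehicle, 971 in TC and 830 in S2101, at -0.22 ± 0.11 (adjusted p = 0.262, limma). Its inhibitor arrays lay just below its controls. Tubb2b had 9629 and 11019 in vehicle, 9006 in TC and 10695 in S2101, which overlap. Tubb4a was dim, as were the RNA-binding protein genes Elavl3 and Elavl4. Elavl4 had 42.2 and 45.9 in vehicle, 1.45 in TC and 6.17 in S2101. It was the dim member whose groups lay farthest apart (0.72 on the log2 scale), all at signals below the offset of 50.

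Of the surface molecules, Ncam1, the adhesion molecule of axons and of fusing myoblasts, had 3334 and 3323 in vehicle, 2819 in TC and 2975 in S2101. Its log2 difference of -0.20 ± 0.07 did not pass (adjusted p = 0.138, limma), although the groups did not overlap. Its 5 bright probe sets disagreed, with 2 in the opposite direction and a range up to 0.28. L1cam, an axonal adhesion molecule, had 638 and 708 in vehicle, 803 in TC and 723 in S2101, at 0.17 ± 0.11 (0.403).

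**Figure D4:**
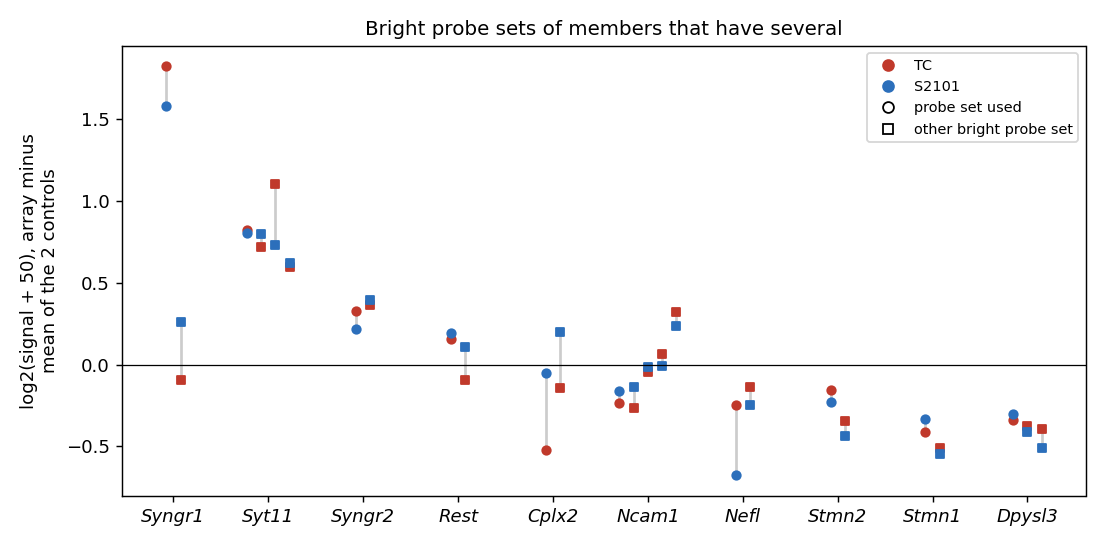
Log2(signal + 50) of the TC array and of the S2101 array minus the mean of the 2 controls, for every bright probe set of the 10 members that have several, with circles for the probe set used. The probe sets of Syt11, Syngr2, Stmn1, Stmn2, Nefl and Dpysl3 share a direction, while those of Syngr1 are far apart and those of Ncam1 lie on both sides of 0.

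Rest, the repressor itself, had 1460 and 1394 in vehicle, 1598 in TC and 1641 in S2101. Both inhibitor arrays lay slightly above the controls, and the log2 difference of 0.18 ± 0.08 did not pass (adjusted p = 0.245, limma). Its other bright probe set gave 0.01. Of 21 tested genes listed for REST and its corepressor complexes, Btrc and Usp7 among them, none passed with the inhibitors together (limma; 3 had an unadjusted p under 0.05). Kdm1a, the target of the compounds, had 5537 and 5202 in vehicle, 4990 in TC and 4862 in S2101, at -0.12 ± 0.07 (0.343). The CoREST gene Rcor1 stood at -0.01 ± 0.10 (0.962). Against TC alone the corepressor gene Sin3b was higher by 0.46 (adjusted p = 0.00794, limma), and against S2101 alone the histone methyltransferase gene Ehmt2 by 0.48 (0.0442). Neither gene was past the test with the other compound, and the differences between compounds were 0.33 for Sin3b and -0.30 for Ehmt2, on the log2 scale, and did not pass.

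Some dim members stood higher on both inhibitor arrays, though they were not tested. Uchl1, a ubiquitin hydrolase abundant in neurons, had 79.2 and 95.2 in vehicle, 147 in TC and 203 in S2101. Bex1, a small adaptor protein gene, had 44.7 and 65.6 in vehicle, 120 in TC and 101 in S2101. Scg5, a chaperone of prohormone convertase, had 1.99 and 2.05 in vehicle, 36.0 in TC and 21.2 in S2101, all at background. In all, 8 of 25 dim members had both inhibitor arrays above both controls and 3 had both below, against 14.4% and 20.9% of all dim genes. Among these 8, the groups of Vgf and Bex2 lay only 0.0073 and 0.0037 apart on the log2 scale. For tested members the counts were 8 and 7 of 23, against 27.6% and 23.4% of all tested genes. The list was made with earlier results of these arrays known, so nothing is read from these shares. With no filter on dim genes, none of these 25 passed the test (limma over 18193 genes), and with probe sets averaged Uchl1 did (0.71; adjusted p = 0.0401, limma).

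Between TC and S2101, no member passed (limma; 4 of 23 had an unadjusted p under 0.05), and 0.033% of all tested genes did. With 1 array each this compares arrays at unstated doses, and does not show that the compounds act alike. Of the members higher with the inhibitors, Syt11, Fez1 and Map2 had nearly equal values on both arrays. Syngr1 read 553 in TC and 460 in S2101. The differences of TC minus S2101 were 0.24 ± 0.20 for Syngr1, 0.02 ± 0.18 for Syt11, 0.01 ± 0.29 for Fez1 and 0.07 ± 0.09 for Map2. For Stmn1 the difference was -0.08 ± 0.08, and for Dpysl3 it was -0.03 ± 0.09.

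Other genes of the same machinery came from lists of the pathway, which were made with earlier results of these data known. Of 28 tested genes of synaptic vesicles and SNARE complexes outside the 48, none passed with the inhibitors (limma; 2 had an unadjusted p under 0.05, both higher), with a median of 0.10. Nearest was Scamp2, a carrier membrane protein gene, with 1049 and 1041 in vehicle, 1360 in TC and 1267 in S2101 (0.32 ± 0.09; adjusted p = 0.0573, limma). Of 20 tested genes of neuronal cytoskeleton and growth outside the 48, none passed either (limma; 3 had an unadjusted p under 0.05, all lower), with a median of 0.02. Nearest was Basp1, a growth cone membrane protein gene, with 18596 and 17908 in vehicle, 15806 in TC and 15321 in S2101 (-0.23 ± 0.06; 0.0508). Among 8 markers of glia and Schwann cells 1 was bright enough to test. This was Pmp22, a myelin protein gene also expressed outside nerve, which fell by 0.40 (log2; SE 0.08), with an adjusted p of 0.00999 (limma). The summed signal of the 8 glial markers, mostly Pmp22, was 3157 and 3069 in vehicle, 2291 in TC and 2513 in S2101, and its part in the members' values was not tested.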

How the data were processed

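RNA of 4 samples was measured on 1 Affymetrix array each. The authors deposited linear signal intensities, 1 per probe set, made with MAS5 and Affymetrix Expression Console per the submitters' processing notes, which name no version. Each array had a 2% trimmed mean of 500.0. Biotinylated cRNA came from 250 ng of RNA, per the labels' protocols.

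Of 45101 probe sets, 34945 had 1 gene symbol, 932 several and 9160 none listed. Each gene was its brightest probe set by mean signal, and 9097 genes no dimmer than the median gene entered the tests. Values were log2(signal + 50), which understates changes of dim genes. lmFit and eBayes with an intensity trend (limma 3.58.1, R 4.3.3) compared TC and S2101 together with the controls (residual degrees of freedom 2, prior 8.08), and each compound in a fit with 3 groups (1 plus 8.37), with Benjamini-Hochberg adjustment at 0.05. The fit was tested on simulated data. Signals on each array are given for Rest, for members past a test and for those whose groups lay 0.5 apart; other members, Myog, Actc1, Scamp2 and Basp1 were named after their values were seen. Members and lists were chosen with earlier results of these data known. Symbols absent from the lists' counts had no probe set with that symbol alone, and some were second names of genes that were counted. Alternatives were offsets, filters, probe set averaging, quantile normalization, no trend, leaving out arrays and a replicate block. No genome was used; windows came from RefSeq tables.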

Additional observations from a re-analysis of the deposited data

Results flagged for a closer look

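For 3 tested members the TC array lay beyond both controls on one side and the S2101 array beyond both on the other. TC minus S2101 on the log2 scale was -1.35 for Sncb, -0.44 for Stx1a and 0.31 for Gap43. Tested across all genes, none of these differences passed (adjusted p = 0.109, 0.521 and 0.605, limma). Each rests on 1 array per compound and on unstated doses.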

How the results depend on the processing

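Members past the test with the inhibitors numbered 6 of 23, and 3 with a filter at the 75th percentile (11 members left) or without an intensity trend. Leaving out an array gave 4 to 8. All tested genes past it numbered 729, and 266 without a filter, 457 with the stricter filter, 473 with probe sets averaged, 423 without a trend and 501 to 749 without an array. With TC alone 744 genes and 8 members passed. These counts were 12 and 0 without a filter, 83 and 2 without a trend, and 569 and 4 with the stricter filter (4549 genes tested). With S2101 alone 610 genes and 7 members passed. These counts were 8 and 0 without a filter, 112 and 2 without a trend, and 459 and 3 with the stricter filter. Member counts above 0 hold genes known when the list was made, so nothing is read from their shares. Between TC and S2101, 3 genes passed, 0 without a filter or a trend, and 13 with probe sets averaged, of which 1, Sncb, is a member.

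The members' median of -0.09 ranged from -0.11 to 0.032 when an array was left out, the last without TC. The sample descriptions number TC as inhibitor 1 and S2101 as inhibitor 2. With these numbers as a replicate block (control 1 with TC, control 2 with S2101) 1223 genes and 8 members passed. Across genes, control 2 minus control 1 correlated with S2101 minus TC at r = 0.07. Nothing says that the numbers pair the samples, and the number of an inhibitor array cannot be told apart from its compound.

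With the inhibitors together, Syt11 kept its call in every alternative in which it was tested; against TC or S2101 alone it lost it without a filter, as did every other member. Stmn1 lost its call without a trend (adjusted p = 0.0638, limma), and Dpysl3 without a filter (0.0786), without a trend (0.0978) or without either control. Fez1 no longer passed without a filter, and Map2 without a trend or with probe sets averaged. Both genes were known when the list was made, so their kept or lost calls are a description and nothing is read from them. Offsets of 10 and 250 put Syngr1 at 1.98 and 1.03 and Fez1 at 1.66 and 0.67.

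Reversals were found only in members that did not pass with the inhibitors together. Cplx2 stood at 0.026 without probe sets that can match other transcripts (an alternative chosen after seeing the data). With probe sets averaged, Dpysl2 stood at -0.17 and Ncam1 at 0.092, and with quantile normalization Rab3a stood at -0.010. Leaving out an array gave ranges of -0.65 to 0.074 for Cplx2, -0.24 to 0.070 for Gap43, -0.033 to 0.051 for Rab3a, -0.82 to 0.54 for Sncb, -0.31 to 0.12 for Stx1a and -0.19 to 0.054 for Tubb2b. The causes were not tested.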
